A study of Mus musculus with 6 samples.

Results

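The integrated stress response is represented here by 10 genes: Atf4, Ddit3, Trib3, Asns, Chac1, Sesn2, Atf3, Atf5, Ppp1r15a and Nupr1. They were taken by name, through probesets annotated with exactly 1 gene symbol, out of 22180 genes named in this way. Each of the 10 had 1 such probeset, and each lay at or above the array's median on all 6 arrays, so all 10 were among the 14020 genes tested. The RNA behind each of the 6 arrays (Affymetrix Mouse Gene 2.0 ST) had been freed from 10 blastocysts by heating them in water. All blastocysts came from let7g-transgenic mice, so every group carries the let-7g transgene. The promoter of that transgene and the background strain are not given in the sources used here. D4-act-7g holds 2 arrays of activated blastocysts of day 4, Dor-7g 2 arrays of blastocysts that were dormant in the uterus on day 7, and DOX-7g 2 arrays of blastocysts brought to dormancy in culture with DOX, which induces let-7, also on day 7. The labels name DOX for DOX-7g only. Day and dormancy cannot be told apart in Dor-7g versus D4-act-7g, nor day, dormancy, culture, DOX and let-7 in DOX-7g versus D4-act-7g. In DOX-7g versus Dor-7g, culture, DOX and the induction of let-7 cannot be told apart. Nothing in the labels ties the paired arrays of any group to separate pools of embryos, so the p-values measure only the spread between these arrays, which may be technical.

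Cells under amino acid shortage, endoplasmic reticulum stress, haem shortage or viral RNA activate kinases that phosphorylate the translation factor eIF2. General protein synthesis then slows, while the mRNA of the transcription factor ATF4 is translated more, so that the Atf4 transcript level is not by itself a readout of ATF4 protein. ATF4 induces amino acid synthesis and transport genes, further transcription factors such as CHOP (Ddit3), and PPP1R15A, which dephosphorylates eIF2 and closes the loop. Nupr1 encodes a small nuclear protein induced by many stresses, and ATF4 is among its known inducers.

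Most markers of blastocyst cells lay at or above the array median. Some markers of uterine and blood cells did too, so this bar does not identify the cells. All 6 trophectoderm markers (Cdx2, Gata3, Eomes, Krt8, Krt18 and Tfap2c) were at or above the array median on 5 of the arrays and 5 of 6 on Dor-7g replicate 1. Of 6 epiblast markers 4 were at or above it on every array, with Sox2 and Esrrb below. Dor-7g replicate 1 stood apart: its Pearson correlations across all probesets, which are not independent, ran from 0.899 to 0.919, those of all pairs without it from 0.937 to 0.978, and its median was 4.87 log2 units against 4.62 to 4.67. Markers of other cells differed between arrays too. The stromal gene Dcn stood at 9.29 on Dor-7g replicate 2 and at 3.67 to 4.22 elsewhere. Of 7 blood and immune genes, 6 were at or above the median on both DOX-7g arrays, 4 on both Dor-7g arrays, and 2 and 3 on the D4-act-7g arrays.

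Sequence before the start sites is shown for the 5 members with a known stress element before the start, since ATF4 acts through such elements. The windows are RefSeq's (build GRCm38.p6), from 250 bases before to 50 bases after each annotated start, and all 10 members matched, with 11 windows because Atf5 has a pair of starts. The C/EBP-ATF response element was searched as TGATGNAAN on both strands. It was found in the windows of 5 of 10 members, Trib3, Asns, Chac1, Atf3 and Nupr1, and in 3.95% of all 32851 windows. The cAMP response element TGACGTCA was found in 1 of 10 members, Ppp1r15a, and in 1.79% of all windows. The ER stress response element, searched by its standard consensus, was in none of the members' windows and in 0.119% of all. The stretches below are written 5′ to 3′ on the gene's strand, with the matched element in capitals; in Nupr1, Chac1 and Atf3 it lies on the opposite strand, so that the reverse complement is read.
Nupr1, chr7:126625548-126625606, minus strand: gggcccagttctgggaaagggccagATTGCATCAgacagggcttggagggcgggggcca
Chac1, chr2:119351023-119351081, plus strand: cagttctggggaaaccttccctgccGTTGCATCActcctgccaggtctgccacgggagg
Asns, chr6:7693210-7693257, minus strand: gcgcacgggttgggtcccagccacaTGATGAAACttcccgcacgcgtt
Atf3, chr1:191183411-191183469, minus strand: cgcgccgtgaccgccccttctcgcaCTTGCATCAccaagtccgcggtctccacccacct
Ppp1r15a, chr7:45526269-45526305, minus strand: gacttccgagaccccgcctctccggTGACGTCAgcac
The first base of the element lay at -111 from the start in Nupr1 and Atf3, at -194 in Chac1, at -23 in Asns and at -12 in Ppp1r15a. The Trib3 match, TTTACATCA, began at base 14 after the start. A match is a run of letters and not a measured binding site, and the lack of one in the windows of Ddit3, Atf4, Atf5 and Sesn2 says only that these letters are not in those windows.

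Between in vivo dormant and day 4 blastocysts 1 of the 10 genes passed the test, beside 0.984% of all genes: Nupr1 rose in Dor-7g. Levels of Nupr1 were 8.42 and 7.52 log2 units on the D4-act-7g arrays, 11.81 and 11.60 on the Dor-7g arrays and 10.07 and 11.17 on the DOX-7g arrays. Both Dor-7g arrays were the highest of all 6, both D4-act-7g arrays the lowest, and no groups overlapped. The rise in Dor-7g was 3.74 ± 0.45 log2 units (SE, n = 2 arrays each; limma, adjusted p = 0.0286), a 13.3-fold difference with a 95% interval of 6.19 to 28.8. In these pooled embryos a higher level per cell and a larger share of cells with the transcript cannot be told apart. In DOX-7g Nupr1 was 2.65 ± 0.45 above D4-act-7g, a 6.29-fold difference with an interval of 2.92 to 13.6, and did not pass (limma, adjusted p = 0.0814). The DOX-7g level lay below that of Dor-7g by -1.08 ± 0.45, with an interval of -2.19 to 0.02, which also did not pass (limma, adjusted p = 0.438). Both comparisons with D4-act-7g share its arrays, which differed from each other by 0.89 for Nupr1, a gap that 3.08% of genes reached.

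In Dor-7g the call was lost in some fits without 1 array, while the change stayed between 3.29 and 4.18. Such fits are less precise, so a lost call there does not by itself mean a smaller change. Without Dor-7g replicate 1 the change was 3.63 (limma, adjusted p = 0.0657), without D4-act-7g replicate 1 it was 4.18 (adjusted p = 0.125), and without D4-act-7g replicate 2 it was 3.29 (adjusted p = 0.173). It held without Dor-7g replicate 2, at 3.85 (limma, adjusted p = 0.0269), the array with the high Dcn level. Weighting the arrays turned the calls around, with an adjusted p of 0.0977 in Dor-7g and 0.0319 in DOX-7g (limma). With 2 arrays per group such weights follow the spread within each group and cannot grade either array of a group. Over 15 alternative settings the change lay between 3.29 and 4.18 in Dor-7g, with 10 past the threshold and adjusted p-values of 0.0217 to 0.173. In DOX-7g it lay between 2.10 and 3.20, with 1 past the threshold and adjusted p-values of 0.0319 to 0.365. Immune markers differed between groups too. S100a9, a neutrophil gene, stood at 4.49 and 4.60 in D4-act-7g, at 7.10 and 6.41 in Dor-7g and at 9.55 on both DOX-7g arrays. Of 6 tested immune genes, S100a9 alone was higher without overlap in Dor-7g than in D4-act-7g, and Cd52 was lower without overlap. In that comparison 24.3% of all genes tested were higher without overlap and 21.5% lower. The mean of the 7 blood and immune genes stood at 4.46 and 4.56 in D4-act-7g, at 4.83 and 5.24 in Dor-7g and at 7.21 and 7.14 in DOX-7g, and the pan-leukocyte gene Ptprc was below the median on all 6 arrays. The mean of 7 uterine stroma genes, Dcn among them, stood at 4.85 and 4.94 in D4-act-7g, at 5.15 and 5.92 in Dor-7g and at 4.92 and 4.95 in DOX-7g. Dcn, Col1a1, Col1a2 and Lum were higher without overlap in Dor-7g than in D4-act-7g, Pdgfrb was lower, and Hand2 and Hoxa10 overlapped. In DOX-7g Lum was higher without overlap, Hoxa10 was lower, and the others overlapped. Over all genes tested, 24.3% were higher and 21.5% lower in Dor-7g, and 19.2% and 30.5% in DOX-7g. Dcn, Lum and Hoxa10 were too dim to be tested. The mean of 8 uterine epithelium genes stood at 5.33 and 5.39 in D4-act-7g, at 5.72 and 5.54 in Dor-7g and at 5.70 and 5.74 in DOX-7g, so both day 4 arrays were lowest. Of these 8 genes, Cxcl15 and Sprr2f were below the median on every array. Muc1, Wfdc2, Ltf and Sprr2f were higher without overlap in both dormant groups, Ltf by only 0.03 in DOX-7g. Of all genes tested, 24.3% were so in Dor-7g and 19.2% in DOX-7g. Clu, Pigr, Aqp5 and Cxcl15 overlapped with D4-act-7g in both, and the mean of Clu was lower in Dor-7g, at 5.25 against 5.50. Muc1, a surface mucin gene, stood at 4.91 and 4.65 in D4-act-7g, at 5.74 and 5.79 in Dor-7g and at 6.11 and 5.89 in DOX-7g. Its changes of 0.99 ± 0.19 and 1.22 ± 0.19 did not pass (limma, adjusted p = 0.0981 and 0.0643). The part of these cells in the Nupr1 levels was not tested.

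**Figure D1:**
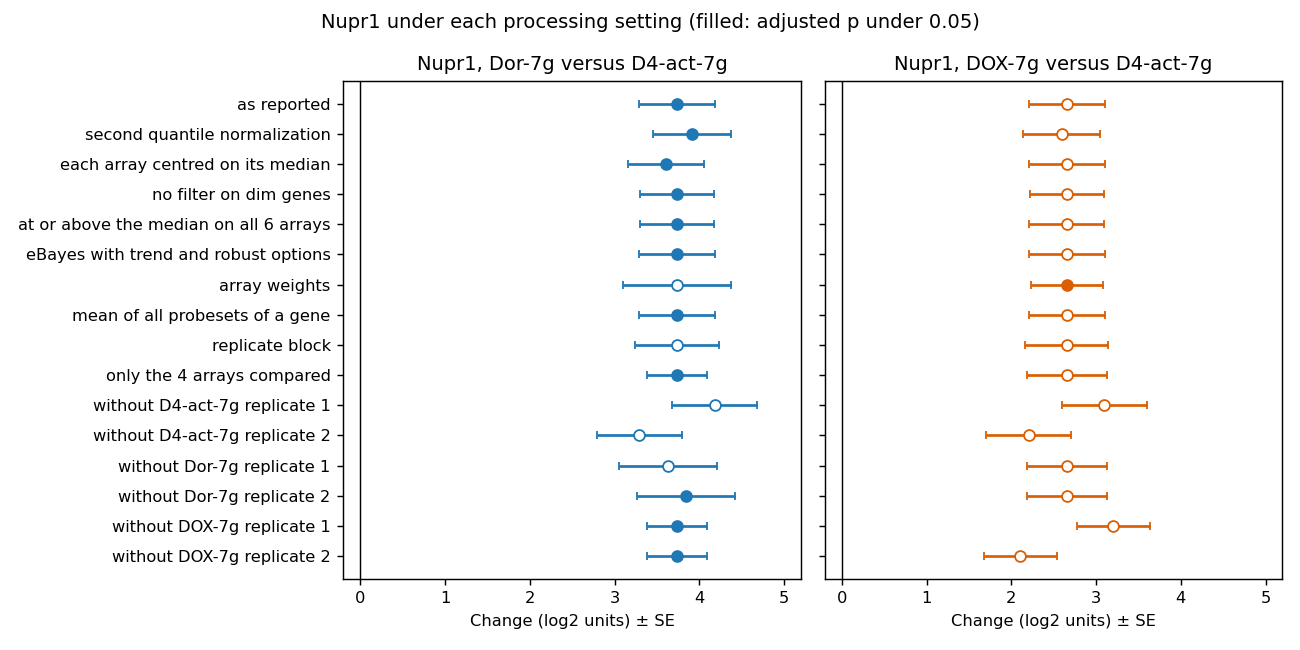
Change of Nupr1 (horizontal axes, log2 units, with SE) in both comparisons with D4-act-7g, as reported and under each of 15 alternative settings; a filled point has an adjusted p under 0.05 from limma. All points lie above 2, and 10 of the 15 alternatives are filled in Dor-7g but 1 in DOX-7g.

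**Figure D2:**
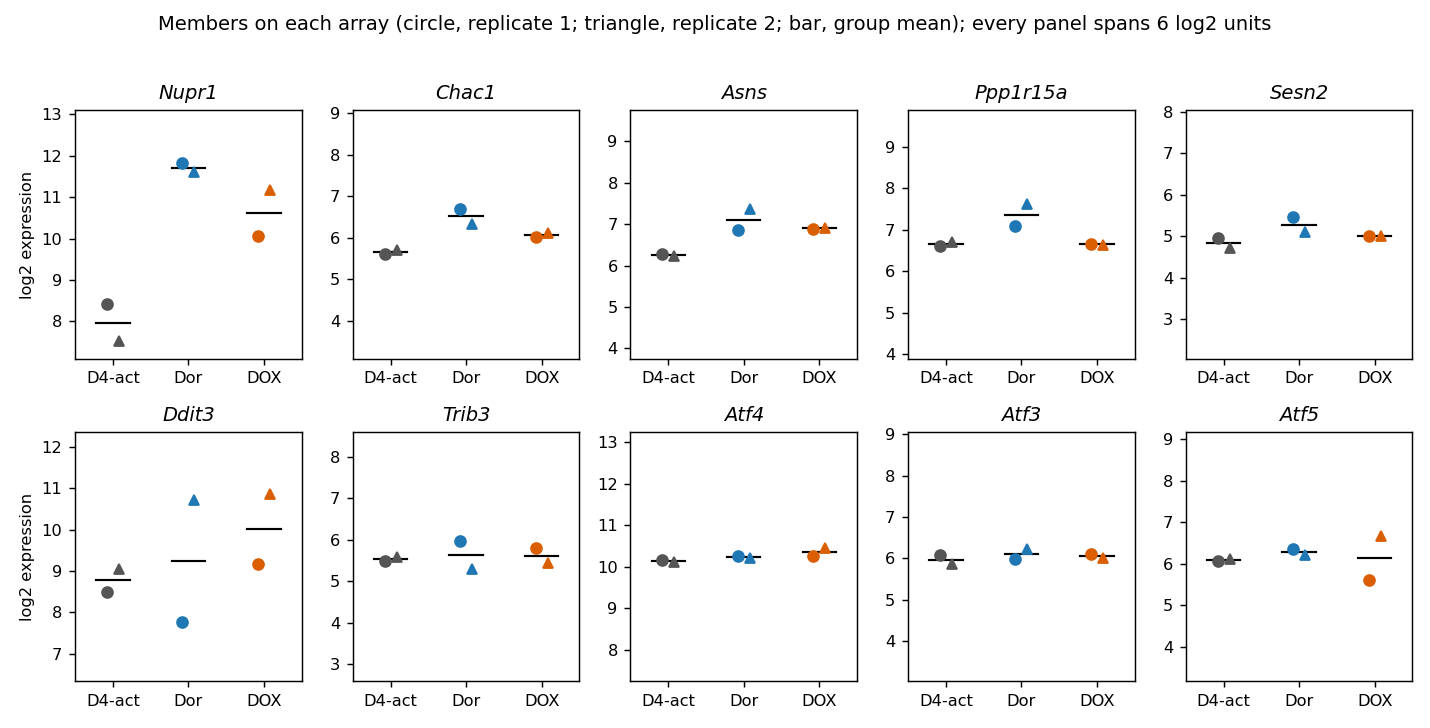
Deposited log2 expression (vertical axes, log2 units, each panel spanning 6 units) of the 10 genes on the D4-act-7g, Dor-7g and DOX-7g arrays; circles are replicate 1, triangles replicate 2 and bars group means. Nupr1 separates D4-act-7g (8.42 and 7.52) from Dor-7g (11.81 and 11.60), Ddit3 has its widest gap within Dor-7g (7.77 and 10.73), and Atf4 stays within 10.13 to 10.44.

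The 0.984% of the 14020 genes that passed in Dor-7g versus D4-act-7g were made up of 0.243% higher and 0.742% lower. All 10 genes had a change above 0, as had 56.7% of all genes, and 4 had an unadjusted p below 0.05, as had 1998 of the 14020 genes. Their median was 0.45 against 0.06 over all genes, and 0.44 without Nupr1. For 7 of the 10, both Dor-7g arrays lay above both D4-act-7g arrays, which 24.3% of all genes did. Centring each array on its median moved the median of all genes by -0.13, and then 8 of the 10 were above 0, with Atf4 and Trib3 below, and 6 did not overlap, against 16.3% of all genes. The median of the 10 genes lay 0.39 above the median of all genes, and 0.49 above it after a further quantile normalization. Centring moves all genes of an array alike and so cannot change this difference. The genes were chosen with earlier results of these data known, so these counts describe them and do not test them.

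Chac1, which encodes an enzyme that breaks down glutathione, stood at 5.62 and 5.70 in D4-act-7g, at 6.70 and 6.32 in Dor-7g and at 6.03 and 6.10 in DOX-7g. The 3 groups did not overlap, with Dor-7g highest. Chac1 differed by 0.85 ± 0.20 in Dor-7g (limma, adjusted p = 0.147; unadjusted 0.00539) and by 0.41 ± 0.20 in DOX-7g (limma, adjusted p = 0.56). Chac1 passed in Dor-7g without replicate 2 of that group, at 1.04 (limma, adjusted p = 0.032), and was at 0.67 without replicate 1 (adjusted p = 0.162).

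Asns, the asparagine synthetase gene, stood at 6.27 and 6.22 in D4-act-7g, at 6.85 and 7.36 in Dor-7g and at 6.88 and 6.91 in DOX-7g. All 4 arrays of day 7 lay above both of day 4, while Dor-7g and DOX-7g overlapped. Its change was 0.86 ± 0.22 in Dor-7g (limma, adjusted p = 0.174; 95% interval 0.32 to 1.40) and 0.65 ± 0.22 in DOX-7g (limma, adjusted p = 0.361; interval 0.11 to 1.19). These intervals cover 1 gene at a time and are not adjusted for the number of genes. Without Dor-7g replicate 1 the change of Asns was 1.11 (limma, adjusted p = 0.0571), and without replicate 2 it was 0.60 (adjusted p = 0.0918).

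Sesn2, whose product senses leucine and restrains mTORC1, stood at 4.97 and 4.72 in D4-act-7g, at 5.47 and 5.10 in Dor-7g and at 5.00 and 5.01 in DOX-7g. Both D4-act-7g arrays were lowest and both Dor-7g arrays highest, with no overlap between groups. The change was 0.44 ± 0.21 in Dor-7g (limma, adjusted p = 0.408) and 0.16 ± 0.21 in DOX-7g (limma, adjusted p = 0.904). At such dim levels differences may be compressed.

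Ppp1r15a, encoding the phosphatase subunit that reverses eIF2 phosphorylation, stood at 6.60 and 6.69 in D4-act-7g, at 7.09 and 7.63 in Dor-7g and at 6.67 and 6.63 in DOX-7g. Both Dor-7g arrays lay above the other 4, and DOX-7g overlapped D4-act-7g. It was 0.71 ± 0.23 higher in Dor-7g than in D4-act-7g (limma, adjusted p = 0.243) and 0.00 ± 0.23 different in DOX-7g (limma, adjusted p = 0.999; 95% interval -0.56 to 0.56). Set directly against Dor-7g, DOX-7g was lower by -0.71 ± 0.23 (limma, adjusted p = 0.333; unadjusted 0.021), so the difference between both dormant groups did not pass over all genes either. Without Dor-7g replicate 1 the difference between Dor-7g and D4-act-7g was 0.98 (limma, adjusted p = 0.0756), and without replicate 2 it was 0.44 (adjusted p = 0.16).

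Trib3 encodes a pseudokinase that binds ATF4 and CHOP products and damps the response. It stood at 5.48 and 5.59 in D4-act-7g, at 5.96 and 5.30 in Dor-7g and at 5.79 and 5.43 in DOX-7g. Both D4-act-7g values lay between the arrays of each dormant group, and the changes were 0.10 ± 0.28 in Dor-7g and 0.08 ± 0.28 in DOX-7g (limma, adjusted p = 0.89 and 0.981). The interval in Dor-7g, -0.58 to 0.78, covers changes of either direction.

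Among the transcription factors, Atf4 itself differed little between arrays. It stood at 10.17 and 10.13 in D4-act-7g, at 10.27 and 10.20 in Dor-7g and at 10.26 and 10.44 in DOX-7g. Its changes were 0.08 ± 0.17 in Dor-7g (limma, adjusted p = 0.844; 95% interval -0.34 to 0.51) and 0.20 ± 0.17 in DOX-7g (limma, adjusted p = 0.81; interval -0.22 to 0.62). The D4-act-7g arrays were lowest, by a margin smaller than the SE. A change of Atf4 mRNA by 1 log2 unit lies outside both intervals.

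Ddit3, encoding the transcription factor CHOP, varied more within groups than between them. It stood at 8.50 and 9.06 in D4-act-7g, at 7.77 and 10.73 in Dor-7g and at 9.18 and 10.86 in DOX-7g. The lowest and the second highest of the 6 values were thus the 2 arrays of Dor-7g, 2.96 apart, a gap reached by 1.29% of genes, where the median gap in that group was 0.36. The DOX-7g arrays were 1.68 apart, a gap that 1.03% of genes reached. The changes of 0.47 ± 1.02 in Dor-7g and 1.24 ± 1.02 in DOX-7g did not pass (limma, adjusted p = 0.857 and 0.804), and their intervals ran from -2.06 to 3.0 and from -1.29 to 3.76. Without Dor-7g replicate 1 the change in Dor-7g was 1.95 (limma, adjusted p = 0.289), and without replicate 2 it was -1.01 (adjusted p = 0.392), so its direction rested on 1 array.

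Atf3, a repressor and activator induced downstream of ATF4, stayed between 5.87 and 6.23 on all 6 arrays, with overlapping groups. It differed by 0.13 ± 0.19 in Dor-7g and 0.09 ± 0.19 in DOX-7g (limma, adjusted p = 0.776 and 0.956). Atf5, a factor linked to mitochondrial protein stress, stood at 6.07 and 6.10 in D4-act-7g, at 6.36 and 6.20 in Dor-7g and at 5.62 and 6.67 in DOX-7g. The lowest and the highest Atf5 values were thus both in DOX-7g. Its changes were 0.19 ± 0.35 in Dor-7g and 0.05 ± 0.35 in DOX-7g (limma, adjusted p = 0.828 and 0.989).

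**Figure D3:**
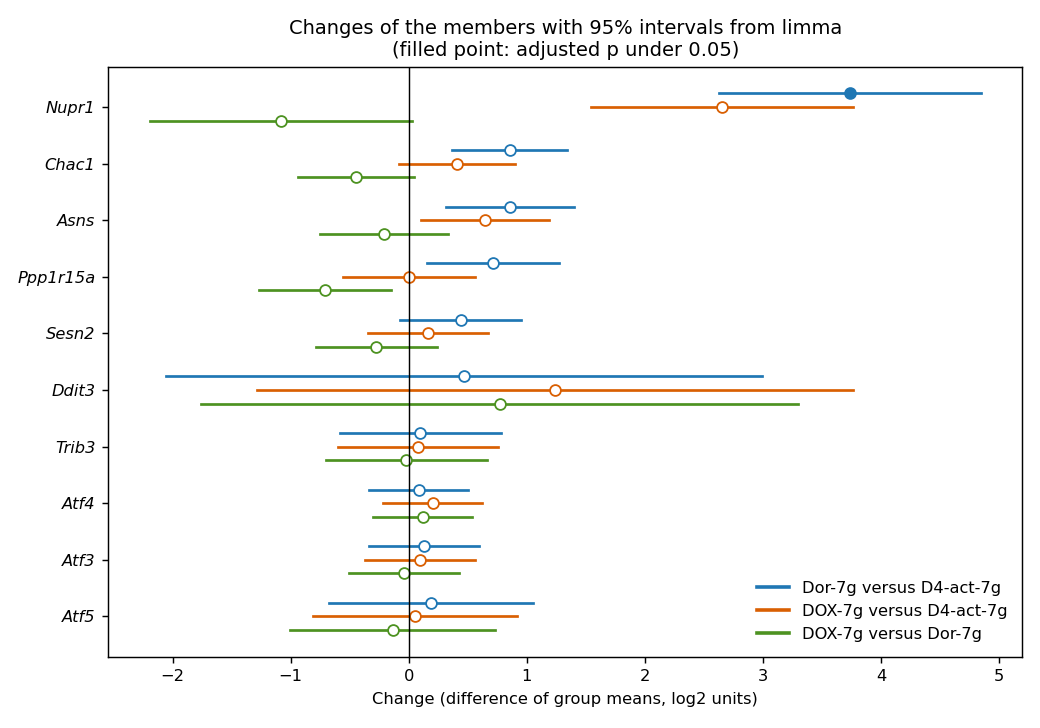
Change of each of the 10 genes (horizontal axis, difference of group means in log2 units) with its 95% interval from limma in the 3 comparisons; a filled point marks an adjusted p under 0.05. Nupr1 in Dor-7g versus D4-act-7g, at 3.74, is the only filled point of the 30, and the intervals of Ddit3 are the widest.

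In DOX-7g versus D4-act-7g none of the 10 genes passed limma's threshold, beside 0.956% of all genes (0.706% higher and 0.25% lower), and 2 had an unadjusted p below 0.05, Nupr1 (0.00118) and Asns (0.0267), as had 1544 of the 14020 genes. All 10 changes were above 0, with a median of 0.18 against -0.05 over all genes, of which 42% were above 0. Arrays did not overlap for Atf4, Ddit3, Asns, Chac1, Sesn2 and Nupr1, 6 of 10, with DOX-7g higher, which 19.2% of all genes showed. In DOX-7g versus Dor-7g none passed limma's threshold, beside 1.16% of all genes (1.04% higher and 0.121% lower), and 1 had an unadjusted p below 0.05, Ppp1r15a, as had 1624 of the 14020 genes. Of the 10 genes 2, Atf4 and Ddit3, were above 0, as were 37.1% of all genes. Chac1, Sesn2, Ppp1r15a and Nupr1 were lower in DOX-7g without overlap, 4 of 10, against 26.7% of all genes, and none was higher without overlap, against 15%. The median there was -0.17 against -0.11 over all genes. After centring, which moved the median of all genes by 0.13, it was -0.04 against 0.02, and Atf3 and Trib3 were then above 0.

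Further genes of the pathway were followed in 7 lists of 87 genes, of which 70 were tested. None of the 70 passed limma's threshold in any of the 3 comparisons. At an unadjusted p below 0.05 there were 11 in Dor-7g versus D4-act-7g, 7 in DOX-7g versus D4-act-7g and 5 in DOX-7g versus Dor-7g, where 1998, 1544 and 1624 of all 14020 genes had such a p. Their medians were -0.06, -0.12 and -0.06, against 0.06, -0.05 and -0.11 over all genes.

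The sensor side of the pathway held 14 tested genes of eIF2 kinases and eIF2 machinery, with medians of -0.06 in Dor-7g and -0.28 in DOX-7g against D4-act-7g. In Dor-7g 8 of the 14 changes were below 0, as were 6076 of all 14020 genes. The count of the 14 was 11 after centring and 7 after a further quantile normalization. In DOX-7g 13 of the 14 were below 0, with 13 and 12 under these scalings, and 8133 of all 14020 genes were below 0 there. The kinase genes Eif2ak1 and Eif2ak2 were below the array median on all arrays and were not tested. Eif2s2, the beta subunit of eIF2, stood at 9.65 and 9.64 in D4-act-7g, at 6.02 and 8.46 in Dor-7g and at 9.17 and 7.31 in DOX-7g, a change of -2.41 ± 0.91 in Dor-7g (limma, adjusted p = 0.32). Both D4-act-7g arrays were the highest, while the arrays of each dormant group lay far apart. Eif2b2, a subunit of the exchange factor eIF2B, was at -0.92 ± 0.24 in Dor-7g and 0.55 ± 0.24 in DOX-7g against Dor-7g (limma, adjusted p = 0.181 and 0.463). Eif2b5, its catalytic subunit, was at -0.47 ± 0.21 in DOX-7g (limma, adjusted p = 0.514), and Impact, an inhibitor of GCN2 activation, at -0.68 ± 0.22 (limma, adjusted p = 0.328). Impact stood at 4.77 and 5.16 in D4-act-7g and was below the array median on all Dor-7g and DOX-7g arrays. It was kept for testing only through its D4-act-7g levels, so its place among the genes below 0 is in part set by the filter. Oma1, the mitochondrial protease that relays stress to the pathway, was at -1.94 ± 0.67 in DOX-7g against Dor-7g (limma, adjusted p = 0.37), with Dor-7g arrays at 7.25 and 9.34.

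The 9 tested enzymes of amino acid synthesis had medians of -0.27 in Dor-7g and 0.00 in DOX-7g. Mthfd2, of mitochondrial folate metabolism, stood at 4.97 and 5.26 in D4-act-7g, at 4.73 and 4.29 in Dor-7g and at 5.85 and 5.79 in DOX-7g. DOX-7g was highest and Dor-7g lowest without overlap, and the difference between them was 1.31 ± 0.22 (limma, adjusted p = 0.0836), from levels near the array median. It passed after a further quantile normalization, after centring and without either Dor-7g array. Psph, the last enzyme of serine synthesis, stood at 8.42 and 8.56 in D4-act-7g, at 6.23 and 7.34 in Dor-7g and at 8.84 and 8.07 in DOX-7g. It was at -1.71 ± 0.43 in Dor-7g against D4-act-7g and at 1.67 ± 0.43 in DOX-7g against Dor-7g (limma, adjusted p = 0.17 and 0.226). Shmt2, also of folate metabolism, was at -0.22 ± 0.18 in DOX-7g (limma, adjusted p = 0.805).

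Of 7 tested amino acid transporters, the arginine and lysine transporter Slc7a3 came closest to the threshold. It stood at 3.94 and 4.29 in D4-act-7g, at 5.08 and 5.38 in Dor-7g and at 5.42 and 5.43 in DOX-7g. All 4 arrays of day 7 lay above both of day 4, whose values were below the array median. Slc7a3 thus passed the filter on dim genes only through the arrays of day 7. The changes were 1.12 ± 0.21 in Dor-7g and 1.32 ± 0.21 in DOX-7g (limma, adjusted p = 0.097 and 0.0714), and the latter passed without either Dor-7g array, which serve there only to estimate the spread. The glutamine transporter Slc1a5 stood at 8.12 on Dor-7g replicate 2 and between 4.89 and 5.30 on the other 5 arrays. It passed in Dor-7g only when replicate 1 was left out. Slc7a5, of the leucine transporter, was at 0.14 ± 0.18 in DOX-7g and Slc38a2, a glutamine and alanine transporter, at -0.19 ± 0.16 in DOX-7g against Dor-7g (limma, adjusted p = 0.909 and 0.652).

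The 9 tested genes of the aminoacyl-tRNA synthetase list, whose enzymes load tRNAs with amino acids, had medians of -0.04 in Dor-7g and 0.03 in DOX-7g. Yars, for tyrosine, stood at 6.05 and 5.88 in D4-act-7g, at 5.54 and 5.31 in Dor-7g and at 6.25 and 6.26 in DOX-7g. No groups overlapped, and DOX-7g lay 0.83 ± 0.18 above Dor-7g (limma, adjusted p = 0.165). Iars, for isoleucine, was 1.10 ± 0.37 higher in DOX-7g than in D4-act-7g (limma, adjusted p = 0.35), and Wars, for tryptophan, was at -0.56 ± 0.30 in Dor-7g (limma, adjusted p = 0.459).

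Other stress-responsive targets had medians of 0.14 in Dor-7g and 0.00 in DOX-7g over 9 tested genes. Eif4ebp1, an ATF4 target that holds back cap-dependent translation, stood at 12.81 and 12.84 in D4-act-7g, at 10.97 and 11.80 in Dor-7g and at 12.55 and 12.52 in DOX-7g. Both Dor-7g arrays were lowest, opposite in direction to Nupr1, Chac1 and Asns. The change was -1.44 ± 0.29 in Dor-7g (limma, adjusted p = 0.113) and -0.29 ± 0.29 in DOX-7g (limma, adjusted p = 0.861), and it passed in Dor-7g only when replicate 2 was left out. Cebpb, a partner of ATF4, was at 0.80 ± 0.41 in DOX-7g and Ero1a, an oxidase of the endoplasmic reticulum, at 0.51 ± 0.23 in Dor-7g (limma, adjusted p = 0.589 and 0.386).

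Genes of the XBP1 and ATF6 branches, which answer unfolded protein in the endoplasmic reticulum in parallel to ATF4, had medians of -0.16 in Dor-7g and -0.23 in DOX-7g over 15 tested genes. Sdf2l1, a chaperone subunit, was at -0.76 ± 0.32 and -0.79 ± 0.32 (limma, adjusted p = 0.363 and 0.447), and Edem1, of glycoprotein disposal, at -0.48 ± 0.18 and -0.34 ± 0.18 (limma, adjusted p = 0.314 and 0.617). Against Dor-7g, the sensor gene Ern1 was at -0.47 ± 0.21 and the chaperone gene Hyou1 at -0.43 ± 0.22 in DOX-7g (limma, adjusted p = 0.457 and 0.511). The chaperone gene Hspa5, the usual marker of this stress, lay between 6.15 and 6.65 on all 6 arrays.

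All 7 mitochondrial chaperone and protease genes had changes below 0 in both comparisons with D4-act-7g, with medians of -0.20 and -0.40, and none passed. Over all 14020 genes, 6076 were below 0 in Dor-7g and 8133 in DOX-7g. After a further quantile normalization 6 of the 7 were below 0 in Dor-7g and all 7 in DOX-7g, and after centring all 7 in both. Clpp, the proteolytic subunit of a matrix protease, stood at 11.55 and 11.52 in D4-act-7g and between 10.59 and 10.71 on the 4 arrays of day 7. The arrays of day 4 lay above all others, and the changes were -0.88 ± 0.17 in Dor-7g and -0.89 ± 0.17 in DOX-7g (limma, adjusted p = 0.0972 and 0.106). Hspd1, the matrix chaperonin, was at -0.66 ± 0.24 and -0.95 ± 0.24 (limma, adjusted p = 0.303 and 0.206). Hspa9 was at -0.42 ± 0.18 in DOX-7g against Dor-7g (limma, adjusted p = 0.458).

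**Figure D4:**
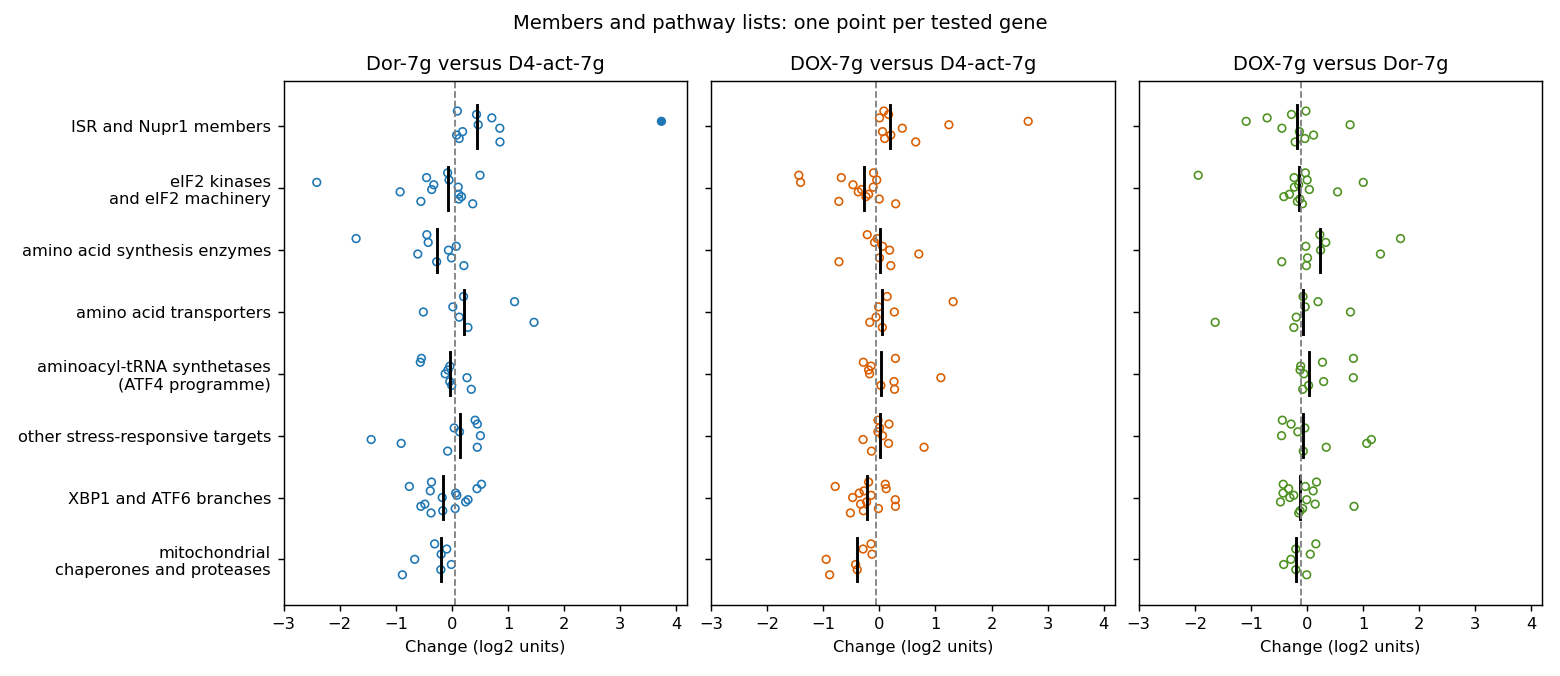
Change of each tested gene (horizontal axes, log2 units; 1 point per gene) of the 10 genes and the 7 pathway lists in the 3 comparisons; black bars are list medians, the dashed line is the median of all genes tested, and filled points have an adjusted p under 0.05. The medians of the 10 genes, 0.45 and 0.18 in the comparisons with D4-act-7g, lie to the right of the dashed line, and those of the mitochondrial list, -0.20 and -0.40, to its left.

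The genes whose profiles over the 6 arrays were nearest to Nupr1, after subtracting each gene's own mean, were Cda, S100a13, Cmtm8, Sapcd1 and Mlana, with root mean square differences of 0.40, 0.45, 0.48, 0.54 and 0.60 log2 units. Cda, encoding cytidine deaminase, stood at 7.39 and 7.05 in D4-act-7g, at 10.93 and 11.48 in Dor-7g and at 10.17 and 10.91 in DOX-7g. Like Nupr1 it was lowest in both D4-act-7g arrays, which follows from its choice by likeness. The genes nearest to Ddit3 were Dnajc18, Dync2li1, Rmdn1, Rbmx2 and Mpp7, at 0.41 to 0.48. Each of these 5 was at its lowest on Dor-7g replicate 1, and 4 of them, Dnajc18, Dync2li1, Rmdn1 and Mpp7, at their highest on Dor-7g replicate 2. Genes chosen by likeness to Ddit3 share its pattern by that choice, so this describes them and is no separate observation. None of the 9 other members was among the 5 nearest to Nupr1 or to Ddit3. The profiles were not scaled, so members that varied far less could not come near, whatever their pattern.

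**Figure D5:**
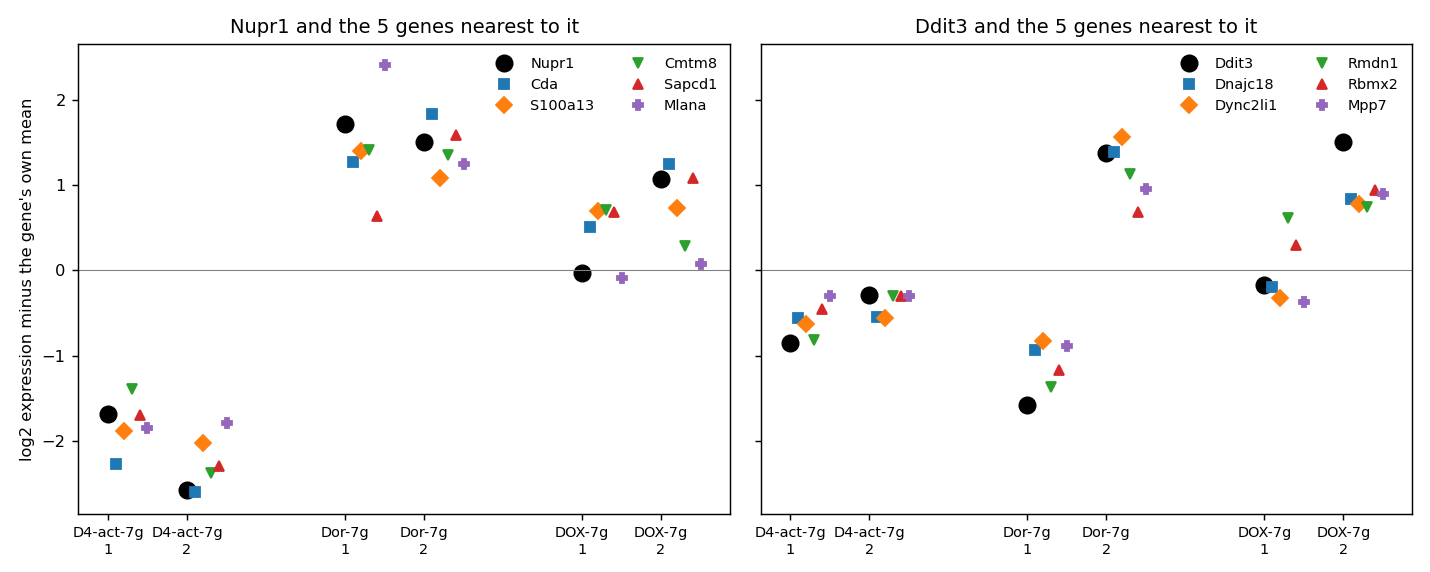
Log2 expression minus each gene's own mean (vertical axis, log2 units) on the 6 arrays (horizontal axis, group and replicate) for Nupr1 and Ddit3 (black) and the 5 genes nearest to each. The Nupr1 set is low on both D4-act-7g arrays and high on both Dor-7g arrays, whereas the Ddit3 set parts the 2 Dor-7g arrays. Each set was chosen for this likeness.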

How the data were processed

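The values deposited by the authors are log2 expression levels of 41345 probesets on each array. Per the submitters' processing notes the authors used Partek 6.6 and RMA, with no settings given; RMA corrects background, normalizes arrays and summarizes probes on the log2 scale. A genome build was not given in the sources used here. No detection calls were used, so levels near an array's median are dim and differences there may be compressed, and the number of arrays limits the precision.

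Groups were read from the sample titles, and probeset names come from GEO's platform annotation, updated by RefSeq (GRCm38.p6) identifiers. Genes with at least 2 of 6 arrays at or above the array median were kept, each by its brightest probeset. A group-means model without a block was fitted to all 14020 with limma 3.58.1 in R 4.3.3, using eBayes defaults (3 residual and 2.81 prior degrees of freedom), and p-values were adjusted by Benjamini-Hochberg within each comparison, with a threshold of 0.05. The fit was tested on simulated data. Intervals are limma's 95% intervals. The members, pathway lists and markers were chosen with earlier results of these data known. Named are all members, the 2 pathway genes of each list with the smallest p in each comparison, any past the threshold, and the 5 genes nearest to Nupr1 and to Ddit3; marker genes and Hspa5 were named after their values were seen. Of 87 listed pathway genes 8 had no probeset with 1 matched symbol and 9 were too dim to test. The 15 alternatives changed the scaling, the filter on dim genes, eBayes options, weights for arrays, how probesets are combined, the block, or which arrays entered the fit.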

Additional observations from a re-analysis of the deposited data

How the results depend on the processing

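Of the 10 genes, 1 passed in Dor-7g versus D4-act-7g and the count was 0 with array weights and 0 with the replicate number as a block, and 0 to 2 without single arrays. In DOX-7g versus D4-act-7g it was 0, and 1 with array weights; in DOX-7g versus Dor-7g it was 0 under all 15 alternatives. With the block 82 genes in all passed in that first comparison, against 138. The replicate numbers are only shared names: deviations of same-numbered arrays correlated at -0.02, -0.01 and -0.14 between groups. Of the 70 pathway genes, 0 passed in each comparison as reported. In DOX-7g versus Dor-7g 1 passed after a further quantile normalization and 1 after centring (Mthfd2), and 0 to 5 without single arrays. In DOX-7g versus D4-act-7g 1 passed with eBayes trend and robust options, 1 with only the 4 arrays compared (Slc7a3 both times) and 2 with array weights (Slc7a3 and Clpp), and 0 to 1 without single arrays. In Dor-7g versus D4-act-7g 0 to 5 passed without single arrays, 5 of them without Dor-7g replicate 2, where 1172 of all genes passed. Counts over all genes ranged from 11 to 1172 in Dor-7g versus D4-act-7g, 43 to 461 in DOX-7g versus D4-act-7g and 67 to 880 in DOX-7g versus Dor-7g. The cause of these shifts was not tested.

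Changes of the 10 genes kept their direction in 428 of 450 refits. All 22 that turned were of changes that did not pass. After a further quantile normalization these were, in DOX-7g versus Dor-7g, Atf4 (-0.12), Trib3 (0.0473) and Atf3 (0.0273). After centring they were Atf4 (-0.0431) and Trib3 (-0.0301) in Dor-7g versus D4-act-7g and Trib3 (0.11) and Atf3 (0.0945) in DOX-7g versus Dor-7g. Without single arrays the ranges that crossed 0 in Dor-7g versus D4-act-7g were those of Trib3 (-0.24 to 0.43) and Ddit3 (-1.01 to 1.95). In DOX-7g versus D4-act-7g they were those of Ppp1r15a (-0.0455 to 0.048), Atf3 (-0.0101 to 0.20), Trib3 (-0.10 to 0.26) and Atf5 (-0.47 to 0.58). In DOX-7g versus Dor-7g they were those of Ddit3 (-0.71 to 2.25), Trib3 (-0.35 to 0.32), Asns (-0.46 to 0.0433), Atf3 (-0.16 to 0.0884) and Atf5 (-0.66 to 0.39). Where 1 array of a group was left out, the lone array was assumed to vary like the others.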
